A study of Mus musculus with 6 samples.

Results

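Small RNA from extracellular vesicles (EVs) of C2C12 myoblasts was compared with small RNA from mouse primary bone marrow cells (BM), to describe which miRNAs the vesicles carried that marrow cells lacked and which marrow miRNAs were missing from the vesicles. The vesicles came from 4 libraries, 2 of Myo-EVs from control cultures and 2 of FFSS-Myo-EVs from cultures exposed to fluid flow shear stress (FFSS). BM was 1 library. A further library of primary osteoblasts (OB) is quoted only for single values. An entry is a miRBase precursor, and its reads of both arms are counted together. Entries were kept when they had 50 or more counts in BM or on average over the 4 EV libraries, which left 341 of 1006 entries with 294 distinct miRNA names. Of these, 193 reached the limit on both sides, 42 only in the EVs and the others only in BM.

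C2C12 is an established mouse myoblast line. Its conditioned medium, collected over 48 hr in serum depleted of EVs, was cleared of cells and debris and ultracentrifuged, and the RNA of the pellet was sequenced. All libraries, vesicles included, are labelled with a mixed background, of which 81.25% is C57BL/6J and 18.75% is 129/SvJ, and BM has a labelled age of 8 to 10 weeks. The paper gives that background only for the mice it bred, while its C2C12 cells came from ATCC. The label is therefore not shown to hold for the vesicles, and a strain difference cannot be told apart from the other differences between vesicles and marrow. The BM cells are labelled as unstressed controls. Whether they were sequenced fresh or after culture is not given in the sources used here. The methods take marrow from 1 mouse for the osteoclast assay and do not state the source of the sequenced marrow. The growth text attached to all samples also names 1,25-dihydroxyvitamin D3 and dexamethasone, but no sample is labelled with either agent. Myoblast cells themselves were not analysed here, so a difference between vesicles and marrow includes the difference between the source cells.

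miRNAs are short RNAs cut from hairpin precursors. Bound to an Argonaute protein they pair with messenger RNAs, mainly through bases 2 to 8, the seed, and lower the output of those messages. Cells release part of their miRNAs in vesicles, and many miRNAs are restricted to a lineage, so that blood cells, muscle and mesenchymal cells each have their own set. Osteoclasts, the cells that resorb bone, arise from myeloid precursors in the marrow.

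The mature sequences of the entries that differed most are shown here because their levels make up the contrast described below. They are from RefSeq (GRCm38.p6), and the seed is in capitals. The first set comes from a run of X-linked precursors that were at 0 to 2 counts in BM.
miR-881-3p: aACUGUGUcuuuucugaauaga
miR-881-5p: cAGAGAGAuaacagucacaucu
miR-741-3p: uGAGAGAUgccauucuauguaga
miR-871-3p: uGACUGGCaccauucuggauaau
miR-871-5p: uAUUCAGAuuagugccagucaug
miR-465c-5p: uAUUUAGAauggcgcugaucug
miR-470-5p: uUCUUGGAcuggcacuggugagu
The next set holds other miRNAs that were far higher in the EVs.
miR-31-5p: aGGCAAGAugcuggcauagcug
miR-206-3p: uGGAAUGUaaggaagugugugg
miR-182-5p: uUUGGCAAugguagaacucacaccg
miR-183-5p: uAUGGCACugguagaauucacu
miR-196a-5p: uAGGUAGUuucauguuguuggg
The last set holds marrow miRNAs that were far lower in the EVs or at 0 there.
miR-340-5p: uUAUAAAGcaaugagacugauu
miR-223-3p: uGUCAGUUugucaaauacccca
miR-142a-5p: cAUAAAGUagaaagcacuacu
miR-142a-3p: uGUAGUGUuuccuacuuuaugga
miR-342-3p: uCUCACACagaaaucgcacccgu
miR-451a: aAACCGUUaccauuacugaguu
miR-338-3p: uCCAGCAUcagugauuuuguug
miR-511-3p: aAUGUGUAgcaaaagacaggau

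The 5 libraries held between 2414132 and 6092460 counts, with BM the deepest. Levels are given as CPM, the counts scaled to a library total of 1000000. An entry was called higher or lower in the EVs when it was at least 4-fold above or below BM in each of the 4 EV libraries. With 1 BM library the spread between marrow samples is unknown and no p-value is given for EVs against BM. An entry at 0 in BM was set to 3 counts in that library, and an entry at 0 in all EV libraries to 3 counts over their sum, and its ratio is then a lower bound. Intervals are exact at 95% and cover counting error only. Of the kept entries, 81 (23.8%) were higher in the EVs, 84 (24.6%) were lower and 176 were neither. The entries called higher took 2.40% of the BM counts and between 33.5 and 39.2% of the EV counts. The entries called lower took 18.5% of BM and between 1.75 and 2.14% of the EVs.

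A share depends on the rest of its library. The entry mir-21a, a growth-associated miRNA abundant in many cultured cells, took 44.9% of BM and between 20.2 and 23.3% of the EV libraries. Without it the counts became 68 higher and 113 lower, so that 37.6% of the calls were on the higher side instead of 49.1%. This scale shifted the median log2 ratio by -0.51, and the authors' normalized values by 0.28, TMM factors by 0.32 and median-of-ratios factors by -0.06, from a median of -0.79. Under all 5 scales 68 entries remained higher and 69 remained lower, and none reversed. Among the 193 entries with enough counts on both sides the median was 0.08, with 42 (21.8%) higher and 34 (17.6%) lower. The limit of 50 counts itself sets the direction of the others. Of the 42 entries kept only through the EVs 39 (92.9%) were higher and none lower, and of those kept only through BM 50 (47.2%) were lower and none higher. A count of calls over members kept through 1 side is therefore no more than a description.

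**Figure D1:**
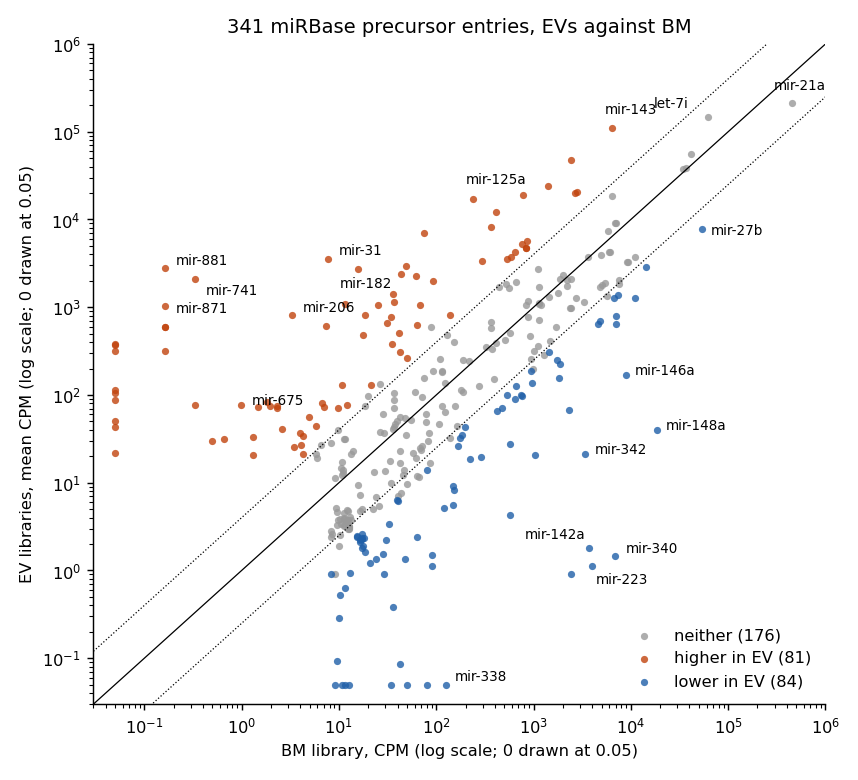
Level of each of the 341 kept entries in BM (x axis) and its mean over the 4 EV libraries (y axis), in CPM on log axes, with 0 drawn at 0.05. The solid line marks equal levels and the dotted lines a 4-fold difference. The 81 entries higher in the EVs reach down to 0 in BM, and several abundant marrow entries such as mir-340 and mir-223 lie below 2 CPM in the EVs.

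Of the 10 highest entries of BM, 5 were also among the 10 highest of the EVs, namely mir-21a, let-7i, let-7g, let-7f-1 and let-7f-2. let-7i, a member of the growth-restraining let-7 family, stood at 61997 CPM in BM and at 140494, 147230, 156441 and 140429 in the 2 Myo-EV and 2 FFSS-Myo-EV libraries. The order of EV libraries is the same in all values below. let-7i was 2.36-fold higher in the EVs and was not called. The 14 entries of let-7 and mir-98 had a median log2 ratio of 0.51, which became -0.01 without mir-21a. Of these, 5 were called higher on every scale, namely let-7b, let-7c-1, let-7c-2, let-7e and let-7k. let-7b had 1406 CPM in BM and 24914, 20499, 24811 and 26587 in the EVs, 17.2-fold higher, while let-7f-1 differed by 1.09-fold. All 4 EV libraries of let-7b lay far above BM, and those of let-7f-1 lay on either side of it.

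The most extreme vesicle entries formed a run on the X chromosome. The mir-871 and mir-880 region, known for miRNAs of the testis that differ strongly between mammals, spans chrX:66776757-66839125 on the minus strand of GRCm38, and no annotated gene runs through its 14 kept precursors on that strand. All 14 were kept only through the EVs, so that the limit left hardly another call than higher, and all were called higher. The file holds 21 entries of the region. Their levels, with those of the other 7, summed to 1.64 CPM in BM and to 9443, 9802, 8276 and 8096 CPM in the EVs. OB had 0.386 CPM.

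The precursor mir-881 had 1 count in BM and 9822, 6677, 7627 and 6438 counts in the EVs. The mean EV level of 2782 ± 450 CPM (SD, n = 4) was 16949 times that of BM, with an interval from 3046 to 670408 that reflects the 1 BM count. mir-741 had 2 counts in BM and 6299, 6267, 5518 and 4930 in the EVs, and mir-871 had 1 count in BM and 2336, 2337, 3648 and 3009 in the EVs. For all 3 precursors even the lowest EV library lay far above the marrow library. mir-465a and mir-470 were at 0 in BM and had at least 919 and 900 counts in every EV library, which puts them at least 769-fold and 749-fold higher. The weakest kept member, mir-471, was at 0 in BM and had 75, 32, 71 and 64 counts in the EVs, at least 44.1-fold higher.

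The copies mir-465c-1 and mir-465c-2 share their mature sequences and had nearly equal counts, 1757 and 1766 in the first Myo-EV library, so their reads cannot be assigned to 1 copy. The name mir-465 is therefore best read as 1 family of 5 kept precursors. The 3 kept mir-465 names also share a seed in each arm, AUCAGGG in the 3p and AUUUAGA in the 5p arm. mir-743a-5p and mir-871-5p share the seed AUUCAGA. Among the 7 entries of the region that stayed below the limit, mir-880 itself had 0 counts in BM and 58, 18, 28 and 20 in the EVs, and mir-463 had 0 in BM and 33, 12, 17 and 21.

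**Figure D2:**
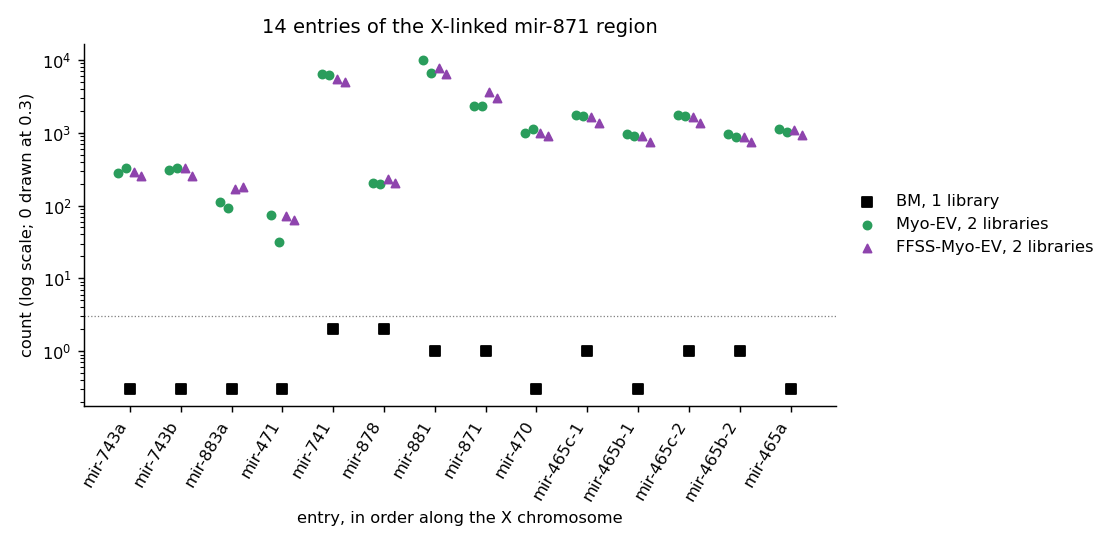
Counts of the 14 kept entries of the X-linked region, in their order along the chromosome, in BM and in each EV library, on a log axis with 0 drawn at 0.3. The dotted line marks 3 counts. BM stays at 0 to 2 counts throughout, while the EV libraries range from 32 counts for mir-471 to 9822 for mir-881.

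Muscle miRNAs fell on both sides. mir-206, which is specific to skeletal muscle and present in myoblasts before fusion, had 20 counts in BM and 1961, 1975, 2620 and 2352 in the EVs. Its EV level of 813 ± 91.1 CPM was 248-fold higher than in BM (interval 160 to 405). The miRNAs of differentiated muscle were hardly present in the vesicles. mir-133a-1 had 3 counts in BM and 19, 16, 10 and 4 in the EVs, and mir-133b had 0 in BM and 45, 30, 14 and 11. These were below the limit on both sides. The mir-1 entries were kept only through BM. mir-1a-1 had 77 counts in BM and 0 in all EV libraries, at least 46.2-fold lower. The other copy, mir-1a-2, had 79 counts in BM and 3, 5, 2 and 0 in the EVs, so this minimum is for mir-1a-1 alone. mir-1b had 128 in BM and 4, 3, 1 and 5 in the EVs. The levels of the 6 muscle marker entries summed to 29.7 CPM in BM and to between 712 and 893 in the EVs, nearly all of it mir-206.

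mir-31, which in muscle stem cells holds back the message of the myogenic factor Myf5, had 7.71 CPM in BM and 3408, 4297, 3113 and 3353 in the EVs, 459-fold higher (interval 342 to 619). The mir-183 cluster, best known from sensory cells, was higher for all 3 of its members. mir-182 had 15.8 CPM in BM and 2297, 2888, 2853 and 2990 in the EVs (175-fold). mir-183 was 95.7-fold and mir-96 49.7-fold higher. mir-34c and mir-34b, which lie together on chromosome 9 and respond to p53, were 93.1-fold and 44.2-fold higher, with mir-34c at 457 counts in BM and 21011, 21971, 16818 and 15825 in the EVs. Their relative mir-34a on chromosome 4 had 514 CPM in BM and 411, 498, 360 and 431 in the EVs and was not called.

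The neighbours mir-99b, let-7e and mir-125a on chromosome 17 were all far higher in the EVs. mir-125a, a miRNA of blood stem cells and many other tissues, had 238 CPM in BM and 21067, 18657, 14638 and 14298 in the EVs, 72.2-fold higher. let-7e was 29.5-fold and mir-99b 24.7-fold higher, with mir-99b at 770 CPM in BM and between 17491 and 22580 in the EVs. mir-125b-1, which has the seed of mir-125a on another chromosome, was 6.49-fold higher. mir-423 was among the 10 highest EV entries, with 2416 CPM in BM and 54944, 62080, 36905 and 36462 in the EVs (19.7-fold). mir-708 was 83.0-fold higher, at 7.39 CPM in BM and between 422 and 829 in the EVs.

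The Hox loci split by miRNA family. mir-196a and mir-196b lie within Hox gene clusters and target Hox messages. mir-196a-2 had 300 counts in BM and 8294, 6095, 9377 and 8635 in the EVs, 59.7-fold higher, mir-196a-1 was 55.7-fold, mir-196b 36.7-fold and mir-615, in the Hoxc locus, 22.6-fold higher. The Hox-embedded mir-10a was lower, at 14412 CPM in BM and 3118, 3313, 2565 and 2529 in the EVs, and mir-10b was 5.79-fold lower. The 4 higher calls held on every scale. The lower calls of mir-10a and mir-10b did not: neither was called with the authors' values and 1 of them with TMM factors.

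All 6 kept entries of the mesenchymal list were higher in the EVs, with a median log2 ratio of 3.38 beside -0.79 over all kept entries, but only 3 of them were called without mir-21a. mir-143, a miRNA of smooth muscle and fibroblasts, was abundant on both sides. It had 6455 CPM in BM and 95228, 128850, 103551 and 111043 in the EVs, 17.0-fold higher. Its partner mir-145a was 22.3-fold and mir-214 was 21.5-fold higher. mir-199a-1, mir-199a-2 and mir-199b, which with mir-214 mark mesenchymal cells, were between 5.57-fold and 6.35-fold higher and were the 3 that lost their call without mir-21a. In BM the list's marker entries still summed to 9174 CPM, so the marrow library was not free of mesenchymal miRNAs, and their part in the comparison was not tested.

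Smaller groups were also higher in the EVs. mir-224 and mir-452, in an intron of Gabre on the X chromosome, were 31.0-fold and 38.1-fold higher. mir-675, cut from an exon of the imprinted H19 RNA, had 6 counts in BM and 303, 336, 89 and 88 in the EVs, 78.0-fold higher. mir-351, alone among the 7 kept entries of the mir-322 cluster, was called, at 11.3-fold, while the other 6 lay between 0.13 and 1.26 on the log2 scale. Of all kept entries, 17 had 0 to 3 counts in BM. Besides the 14 of the X-linked region these were mir-344b, with 0 in BM and 425, 267, 140 and 117 in the EVs, mir-6977, with 0 and between 78 and 153, and mir-6944, with 3 and between 69 and 93.

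**Figure D3:**
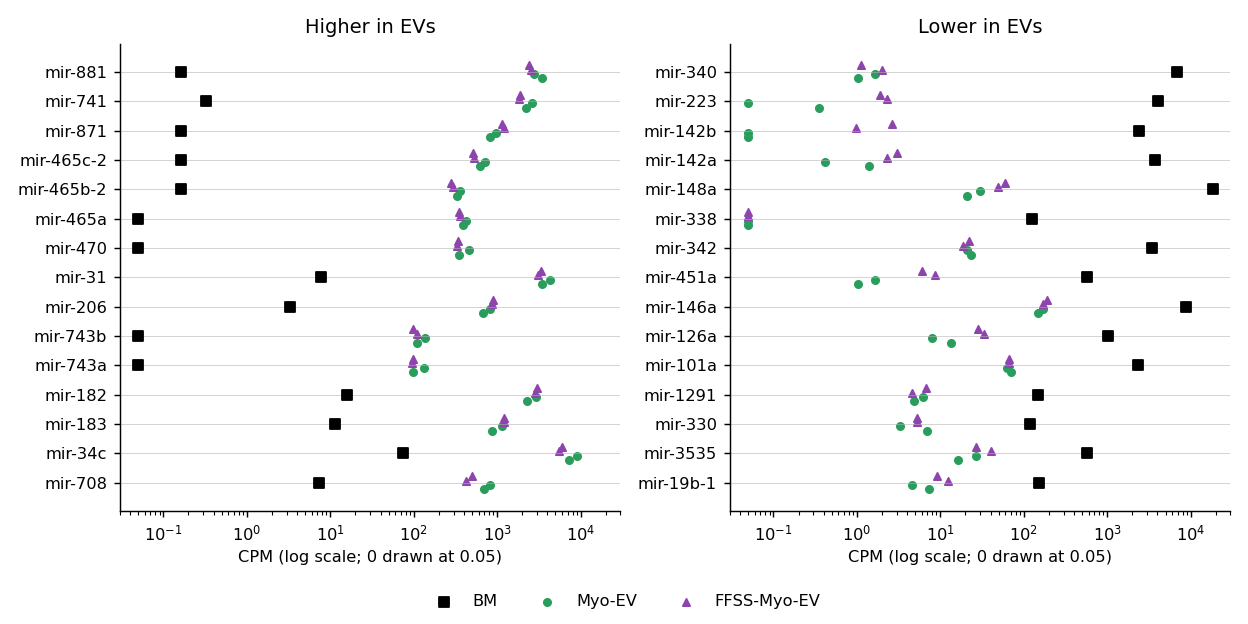
Level of the 15 entries with the largest ratio in each direction among those of at least 100 CPM on the higher side, with copies of 1 miRNA shown once, in CPM on a log axis with 0 drawn at 0.05. Squares are the BM library, circles the 2 Myo-EV and triangles the 2 FFSS-Myo-EV libraries. The rows were taken from entries at least 4-fold apart from BM in each EV library, so in each the 4 EV libraries lie on one side of BM by selection. mir-338 is at 0 in all 4.

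In the other direction, most leukocyte and red cell miRNAs of the lists were lower in the EVs than in BM, and several were nearly at 0. For a level in the BM library, the number of cells of a type and the RNA per cell cannot be told apart. Of 7 myeloid and lymphoid entries 6 were lower in the EVs, beside 24.6% of all kept entries. None was higher, and the median log2 ratio was -7.32. Among these 7, 4 were kept only through BM, where no call of higher was possible, and 3 through both sides. mir-223, the miRNA of granulocytes and monocytes, had 24448 counts in BM and 1, 0, 7 and 5 in the EVs. Its BM level of 4013 CPM was 3535 times the EV mean (interval 1980 to 6361), a log2 ratio of -11.79 that became -12.40 without the first FFSS-Myo-EV library. mir-142a, present throughout the blood lineages, had 22827 counts in BM and 4, 1, 7 and 8 in the EVs, 2102-fold lower (interval 1330 to 3365). All 4 EV libraries held single-digit counts of both.

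mir-142b had 14666 counts in BM and 0, 0, 3 and 7 in the EVs, but it lies on the strand opposite to mir-142a at the same place on chromosome 11, and whether reads were counted by strand is not given in the sources used here, so its value is uncertain. mir-342, in an intron of Evl, had 3418 CPM in BM and 23.3, 21.1, 18.8 and 22.2 in the EVs, 160-fold lower. mir-150, a miRNA of mature lymphocytes, had only 174 counts in BM and was 18.6-fold lower. mir-146a, which is induced by NF-kB and dampens its own pathway, had 8896 CPM in BM and 149, 170, 172 and 190 in the EVs, 52.2-fold lower. mir-155, also induced by NF-kB, was not called. It had 152 CPM in BM and 299, 293, 470 and 546 in the EVs.

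Of the 4 leukocyte markers all were lower in the EVs, beside 24.6% of all kept entries. Of these, 3 were kept only through BM, where 47.2% of all entries were lower and none higher. They summed to 11206 CPM in BM and to between 23.2 and 28.2 in the EVs for all 4. The 3 erythroid markers, of which 2 were kept only through BM, summed to 795 CPM in BM and to between 28.9 and 44.6 in the EVs. mir-451a, which accumulates in red cell precursors, had 3489 counts in BM and 3, 4, 26 and 16 in the EVs, 132-fold lower, and its neighbour mir-144 had 292 in BM and 4, 0, 4 and 7. mir-486a and mir-486b, made in red cells and in muscle, were 5.35-fold and 5.20-fold lower, and these 2 lost their call with the authors' values and with TMM factors. mir-126a, of endothelial cells and megakaryocytes, had 1034 CPM in BM and 13.6, 7.87, 33.3 and 28.6 in the EVs, 49.6-fold lower. It was alone in this on the list of megakaryocyte and stem cell entries, of which 4 of 10 were higher in the EVs, 1 was lower and 5 were neither, with a median log2 ratio of 1.22. All 10 had enough counts on both sides.

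The largest ratio of marrow to vesicles belonged to an entry that is not restricted to blood cells. mir-340, in an intron of Rnf130, had 42083 counts in BM and 3, 4, 6 and 3 in the EVs. Its BM level of 6907 CPM was 4754 times the EV mean (interval 2916 to 8287). OB held 3238 counts of it. mir-148a, a miRNA of many tissues, had 18414 CPM in BM and 20.9, 29.8, 48.5 and 59.1 in the EVs, 465-fold lower. mir-101a was 34.8-fold lower, at 2317 CPM in BM and between 63.8 and 71.0 in the EVs.

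Of the kept entries, 14 had 0 to 3 counts in every EV library. mir-338, in an intron of Aatk, had 771 counts in BM and 0 in all 4 EV libraries, at least 463-fold lower. mir-511, in an intron of the macrophage mannose receptor gene Mrc1, had 492 in BM and 0 in all 4, at least 295-fold lower. mir-7043, in an intron of Rassf4, had 305 and mir-676, in an intron of Eda, 207 counts in BM, and both were at 0 in all EV libraries. The lowest of this kind were mir-429, with 56 counts in BM, and mir-7059, with 58, and for these a level below the EV floor was not detectable.

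The epithelial mir-200 family, which keeps the Zeb repressors low, was present in the marrow library. Its 4 kept members passed the limit only through BM, where no call of higher was possible and 47.2% of all entries were lower. All 4 were lower in the EVs. mir-200b had 556 counts in BM and 3, 5, 2 and 6 in the EVs, and mir-200c 552 and 2, 1, 1 and 8. The list summed to 223 CPM in BM and to between 2.09 and 6.78 in the EVs. Epithelial markers in a marrow library stand beside the result as measured, and their source was not tested.

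**Figure D4:**
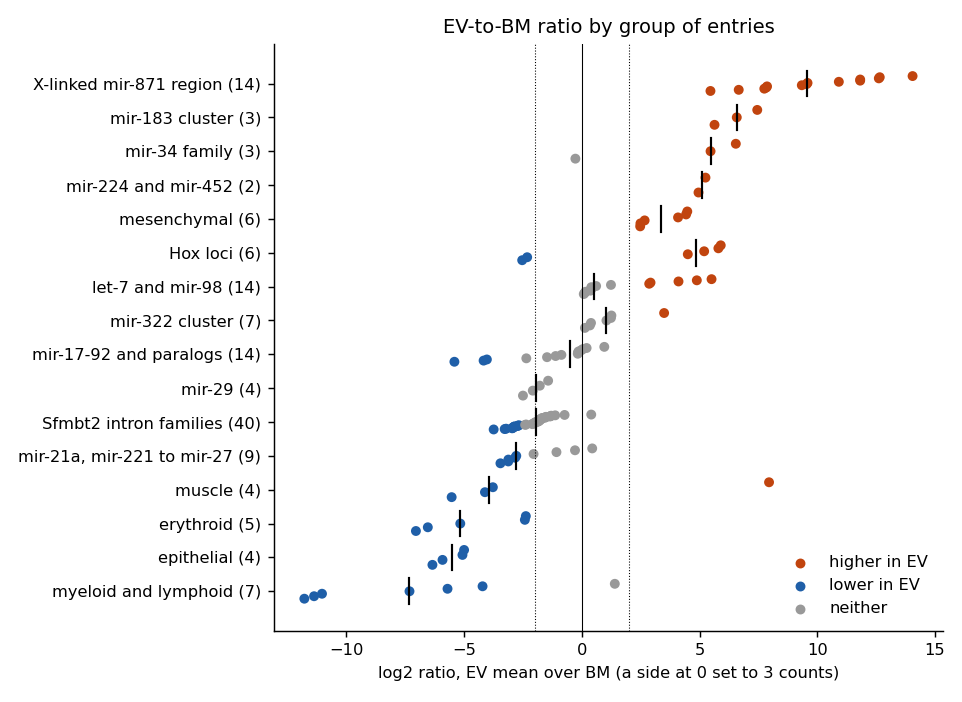
Log2 ratio of the EV mean to BM for the kept members of 16 groups, with the number of members in brackets. Each point is an entry coloured by its call, black bars are medians, dotted lines mark a 4-fold difference, and a side at 0 was set to 3 counts. The X-linked region, the mir-183 cluster and mesenchymal entries lie to the right, and epithelial, erythroid and most myeloid entries to the left.

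The list of mir-21a, mir-221, mir-222, mir-23, mir-24 and mir-27 had 9 kept entries. Of these 5 were lower in the EVs (55.6%, beside 24.6% of all kept entries), by smaller amounts, and 4 were not called. mir-27b had 53585 CPM in BM and 6407, 7452, 8664 and 8566 in the EVs, 6.89-fold lower. mir-221, mir-222, mir-23a and mir-23b were also called, between 7.12-fold and 11.0-fold lower. mir-24-1 and mir-24-2, which lie in the same transcripts as mir-23 and mir-27, were not called, at 0.44 and -0.29 on the log2 scale. mir-27a was not called either but lay at -2.05. It was at 0.22 of the BM level in Myo-EVs, past the 4-fold limit, and at 0.26 in FFSS-Myo-EVs. mir-21a itself was 2.11-fold lower. The 4 mir-29 entries had log2 ratios between -2.50 and -1.43 and none was called. Without mir-21a 2 of them were.

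Precursors close together on the genome mostly shared their call, where neither also counts as a call. Only the 258 kept entries with a RefSeq hairpin could be placed. Of these, 100 formed 36 clusters with gaps of at most 10000 bases. Every placed member was higher in 10 clusters, lower in 3 and neither in 15, and 8 clusters were mixed. No cluster held both a higher and a lower call among its placed members. Over all kept entries 23.8% were higher, 24.6% were lower and 176 of 341 were neither. How many clusters would share a call from these shares alone was not tested. Clusters that were all neither need not share a direction, as mir-181a-1 and mir-181b-1 had log2 ratios of -1.64 and 0.67. Kept entries that were not placed are missing from these counts. mir-351, called higher, is not among the 6 entries counted for the mir-322 cluster, which were all neither. The widest mixed cluster was mir-363 to mir-106a on the X chromosome, followed by its relative mir-17 to mir-92a-1 on chromosome 14. In the latter, mir-17, mir-20a and mir-92a-1 differed by at most 1.15-fold, while mir-19b-1 had 919 counts in BM and 21, 11, 38 and 24 in the EVs, a log2 ratio of -4.17. mir-19a lay between, at 5.13-fold lower, and was not called. Their mature sequences show which members part.
miR-17-5p: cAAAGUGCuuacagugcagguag
miR-20a-5p: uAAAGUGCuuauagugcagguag
miR-92a-3p: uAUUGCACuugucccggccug
miR-19b-3p: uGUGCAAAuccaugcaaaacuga
Among these, mir-17, mir-20a and mir-92a-1 carry the seeds AAAGUGC and AUUGCAC, and mir-19a and mir-19b carry GUGCAAA. mir-18a, also in this cluster, had 226 counts in BM and 249, 206, 159 and 167 in the EVs and was not called. The seed AUUGCAC did not go with an equal level throughout. It is shared by 5 kept miRNA names, of which 1 was called lower. This was mir-363, in the X chromosome cluster named above, with 71 counts in BM and 0 in all EV libraries. Of the 6 kept miRNA names with the seed AAAGUGC none was called, with log2 ratios between -1.48 and 0.20.

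A shared seed did not mean a shared level in other families either. mir-148a, mir-148b and mir-152 have the seed CAGUGCA, and the last 2 are named here after their values were seen.
miR-148a-3p: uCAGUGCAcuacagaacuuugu
miR-148b-3p: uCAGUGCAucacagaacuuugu
miR-152-3p: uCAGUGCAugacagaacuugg
mir-148a was 465-fold and mir-148b 6.95-fold lower in the EVs, and mir-152 was 2.46-fold higher and not called. Their log2 ratios thus ran from -8.86 to 1.30. mir-146b, with the seed of mir-146a and likewise named after its values were seen, had 4965 CPM in BM and between 3307 and 5191 in the EVs, 1.25-fold apart, where mir-146a was 52.2-fold lower.

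The 2 copies of mir-365, also named after their values were seen, share their 3p arm and differ at 3 bases of the 5p arm, which are in capitals here.
miR-365-1-5p: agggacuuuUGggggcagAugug
miR-365-2-5p: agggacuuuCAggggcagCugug
In BM they were within 1.18-fold of each other, with 130 and 154 counts. In the EVs mir-365-1 had 256, 252, 462 and 473 counts and mir-365-2 had 2847, 3417, 2713 and 2430, 8.05-fold apart. Both were called higher. Of 29 names with several kept entries, 18 had copies within 1.5-fold of each other in both BM and the EV mean.

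Base composition and position were described for the 258 kept entries with a RefSeq hairpin. The median GC content of the mature arms was 47.7% for names higher in the EVs, 45.5% for names lower and 47.7% for all kept names. Across 232 names GC content and the log2 ratio had a Spearman rho of 0.12, over miRNAs that share libraries. The letters GGAG, searched on the mature strand of either arm, occurred in 14.0% of names higher, 14.0% of names lower, 15.1% of all kept names and 22.3% of all RefSeq miRNA genes of the table. The X chromosome held 24.6% of names higher in the EVs, 15.5% of names lower and 17.1% of all kept names. Of the 14 higher names on the X chromosome, 12 belong to the X-linked region.

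Shear stress was compared inside the EVs, with edgeR's quasi-likelihood test on 354 entries with a mean normalized value of at least 10. It uses the EV libraries that also define the calls, so the overlap is a description. FFSS-Myo-EVs were higher for 43 entries (12.1%) and lower for 65 (18.4%), 30.5% in all, at an adjusted p below 0.05. The excess of lower entries depended on the scale. With library totals in place of TMM factors 49 were higher and 46 lower, so that 51.6% of the changes were rises instead of 39.8%. Among the 81 entries higher in the EVs than in BM, all tested, 12 rose (14.8%) and 22 fell (27.2%) with FFSS, with a median log2 fold of -0.15. With library totals these became 15 and 14. Among the 84 entries lower in the EVs, 42 had enough counts, of which 7 rose (16.7%) and 3 fell (7.14%), or 8 and 1 with library totals. Each group is 2 libraries, and leaving out either FFSS-Myo-EV library brought the calls from 108 to 44 or 45.

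Of the 14 entries of the X-linked region 7 fell and 2 rose, but with library totals only 1 fell and 2 rose. mir-741 fell by 0.45 ± 0.14 (SE) on the log2 scale and mir-881 by 0.41 ± 0.14, with edgeR adjusted p of 0.00516 and 0.017, which for mir-881 became 0.0842 with library totals. mir-871 rose by 0.32 ± 0.13 (edgeR adjusted p = 0.0413). mir-675 fell most among the entries higher than in BM that are on the fixed lists, by 2.04 ± 0.21, from 105 and 139 CPM in Myo-EVs to 29.4 and 33.1 in FFSS-Myo-EVs (edgeR adjusted p = 6.56e-20). mir-7068 fell by 1.58 ± 0.13 and mir-344b by 1.60 ± 0.19. mir-224 rose by 0.61 ± 0.13, and mir-3473c, from the list of entries that may match fragments of other RNAs, rose by 1.37 ± 0.13. mir-196a-1, mir-196a-2, mir-206, mir-31 and the mir-183 cluster did not pass the test, with log2 folds between -0.33 and 0.36.

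Some marrow miRNAs were less rare in FFSS-Myo-EVs. mir-451a rose by 2.36 ± 0.52 (edgeR adjusted p = 6.79e-05), mir-126a by 1.43 ± 0.33 (0.000162) and mir-148a by 1.01 ± 0.26 (0.000838). All 3 remained at least 31.0-fold below BM in every EV library. The rise of mir-451a rests on few reads, with 3 and 4 counts in the Myo-EV libraries. Other tested blood cell entries, mir-342, mir-486a, mir-486b and mir-146a, did not pass the test, with log2 folds between -0.20 and 0.10. mir-23a and mir-221 rose by 0.53 ± 0.13 and 0.51 ± 0.13. mir-155, not called against BM, rose by 0.70 (edgeR adjusted p = 9.65e-07). mir-223, mir-142a and mir-340 had too few EV counts for the test.

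**Figure D5:**
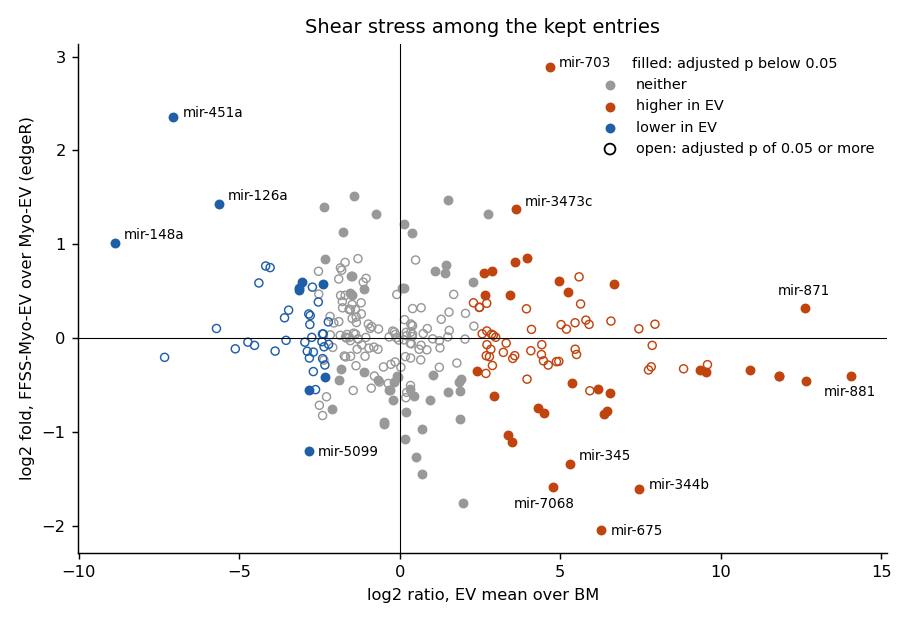
Log2 fold of FFSS-Myo-EVs over Myo-EVs from edgeR (y axis) against the log2 ratio of the EV mean to BM (x axis) for the kept entries that were tested. Filled points passed an adjusted p of 0.05 and open points did not, and colours give the call against BM. mir-675 and mir-344b lie at the bottom right, and mir-451a, mir-126a and mir-148a at the top left.

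At the limit itself, mir-669p-1 and mir-6928 were kept with 50 and mir-669a-3 with 51 counts in BM. mir-669p-2 with 49 and mir-7015 with 47 counts in BM were left out, as was mir-682 with a mean of 48.75 in the EVs.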

How the data were processed

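The authors sequenced small RNA from 90 ng of total RNA per library and matched the reads, grouped by sequence, to miRBase precursors in CLC Genomics Workbench. The deposited counts are whole numbers per precursor and were not normalized. The authors' normalized expression values, a signal, are these counts scaled by 1 constant per library. The submitters' notes name mm10. The miRBase release, the mismatches allowed and how a read with several matching precursors was counted are not given in the sources used here. The BM total was 6092460 counts. The Myo-EV libraries held 2871364 and 2414132, and the FFSS-Myo-EV libraries 3029524 and 2656119.

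Counts were turned into shares of the library total and called as stated in the report. The named entries are the 10 highest of BM and of the EVs, the 15 largest ratios in each direction at 100 CPM or more with copies of 1 miRNA taken once, entries with 0 to 3 counts on one side, those nearest the limit, and members of lists. The members and lists were chosen with earlier results of these data known. FFSS was tested in edgeR 4.0.16 (R 4.3.3) on deposited counts with TMM factors and Benjamini-Hochberg adjustment, without a replicate block, and DESeq2 1.42.0 was an alternative. The edgeR test and the counting intervals were tested on simulated data, and the 4-fold calls on made values with known answers. DESeq2 was not tested in this way. The replicate numbers are not stated to mark separate cultures, so p-values measure only the spread between these libraries. The replicates of Myo-EV and FFSS-Myo-EV differed by more than counting noise (chi-square per degree of freedom of 93.3 and 15.9). Positions are from RefSeq GRCm38.p6 and host genes from GENCODE M21. Python 3.11.15 was used. Alternatives are listed at the end.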

Additional observations from a re-analysis of the deposited data

Results flagged for a closer look

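For 36 entries the 4-fold call against BM differed between the Myo-EV and the FFSS-Myo-EV libraries taken alone. Of these, 27 could be tested for a difference between the EV groups, and 11 passed edgeR's quasi-likelihood test at an adjusted p below 0.05, where 30.5% of all tested entries passed. The entries were chosen for a difference in the libraries that the test also uses, so this count is a description. With library totals mir-1964 no longer passed (edgeR adjusted p = 0.0584). mir-188 was 6.04-fold above BM in Myo-EVs and 1.89-fold above it in FFSS-Myo-EVs, a log2 change of -1.76 (edgeR adjusted p = 2.73e-15). mir-149 crossed the limit in the same direction, with -0.57. mir-191 and mir-1964 were lower than BM by the 4-fold rule only in FFSS-Myo-EVs, with log2 changes of -0.45 and -0.75.

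mir-3473a, mir-3473b and mir-3473e were higher than BM by the rule only in FFSS-Myo-EVs, with log2 changes of 0.60, 1.32 and 1.48. mir-374b, mir-466f-2, mir-467d and mir-6516 were lower than BM by the rule only in Myo-EVs, with log2 changes of 0.84, 1.13, 1.40 and 1.52. In FFSS-Myo-EVs they stayed below BM, at 0.26, 0.41, 0.29 and 0.57 of its level.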

How the results depend on the processing

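The 81 higher and 84 lower calls stayed within 1.5 times of these counts under the 4 other scales, a minimum of 100 counts, 1 entry per name, the EV mean in place of each library, and either EV group alone. Leaving out 1 EV library gave 81 to 84 higher and 85 to 92 lower. Other choices moved the counts. A 2-fold rule gave 145 lower and an 8-fold rule 42 lower. No filter on low counts gave 168 higher and 157 lower, and 50 counts on both sides gave 42 and 34. edgeR's quasi-likelihood test on EVs against BM takes its spread from the EV libraries alone and so says nothing of the spread between marrow samples. Read only as another rule of selection, it gave 140 higher and 137 lower at an adjusted p below 0.05. The 60 entries named by the rule and called kept their direction under the 4 other scales and each choice of EV libraries. Of the entries without a call, let-7g, let-7f-1 and let-7f-2 changed sign, the first to -0.11 and the others to -0.39 and -0.43 without mir-21a. Leaving out 1 EV library moved 5 of the named ratios by over 1.5 times, from a log2 ratio of -11.79 to -12.40 for mir-223 (FFSS-Myo-EV replicate 1) and from -11.37 to -12.83 for mir-142b (FFSS-Myo-EV replicate 2), and for mir-3969, mir-451b and mir-7059, which have few EV counts.

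For FFSS, 43 entries rose and 65 fell, 108 in all. DESeq2 gave 36 and 46, and library totals 49 and 46. Leaving out 1 library gave 19 to 60 that rose, 21 to 72 that fell and 44 to 132 in all, the lowest without an FFSS-Myo-EV library, and the cause was not tested. With the replicate block 44 rose and 66 fell, 110 in all. The numbers do not mark shared cultures in the labels, and the correlation of equally numbered libraries around their group means was 0.21 over 2 pairs. Depth limits entries near the floor of 3 counts, which is 0.492 CPM in BM and between 0.990 and 1.24 CPM in an EV library.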

Other observations

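The miRNAs of the imprinted Dlk1-Dio3 locus, abundant in embryonic and mesenchymal tissue, were low in both vesicles and marrow. None of the 55 entries of this locus reached the limit. They summed to 14.1 CPM in BM and to 5.57, 6.63, 13.5 and 17.7 in the EVs, against 86875 CPM in OB. Of these 55, 36 were at 0 in BM and 27 were at 0 in every EV library.

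The rodent families mir-297, mir-466, mir-467 and mir-669, most of them in an intron of Sfmbt2, had 40 kept entries, of which 12 (30.0%, beside 24.6% of all kept entries) were lower in the EVs and none was higher. Of the 40, 39 were kept only through BM, where 47.2% of all entries were lower. Without mir-21a 19 were lower. Their copies share sequence, so the entries are not independent. Of 14 kept entries that may match fragments of other RNAs or repeats, 7 were higher, beside 23.8% of all kept entries, and 1, mir-5099, was lower, beside 24.6%. With FFSS 9 rose and 1 fell by edgeR's test at an adjusted p below 0.05, where 12.1 and 18.4% of all tested entries did. mir-703, named after its values were seen, had 8 counts in BM. Its Myo-EV libraries held 25 and 15 counts and its FFSS-Myo-EV libraries 174 and 163, a log2 rise of 2.89 ± 0.32 (edgeR adjusted p = 5.8e-17).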
